A study of Mus musculus with 6 samples.

Results

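The messages of 10 antioxidant and glutathione genes were followed in C2C12 cells, a mouse myoblast line, after transfection with an siRNA against Cox7a2l. They are Gclc, Gclm, Gsr, Txnrd1, Prdx1, Srxn1, Sod1, Sod2, Nqo1 and Hmox1, chosen by name and found as 10 of the 52740 gene rows of the deposited count table. None of the 10 passed the test: at 3 libraries a group their fitted levels lay between 0.801 and 1.19 times the control level. The 95% intervals of these fits ran wider, from -0.62 (Gsr) to 0.52 (Hmox1) in log2 fold change. All 10 were abundant enough to be tested.

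The siCOX7A2L group held 3 libraries of C2C12 cells transfected with the Cox7a2l siRNA, and the siCTRL group held 3 libraries transfected with a random control siRNA. All 6 came from cells kept in growth medium with serum, and total RNA was depleted of ribosomal RNA before sequencing. Cox7a2l encodes a protein that joins respiratory complexes III and IV, and the series' title places the work in myoblast differentiation. The siRNA sequences, the time between transfection and harvest, and whether replicates were separate cultures are not stated by the labels, so p-values measure the spread between these libraries, which may be technical.

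Cells meet reactive oxygen, much of it from the respiratory chain, with layered enzymes. Superoxide dismutases turn superoxide into hydrogen peroxide, peroxiredoxins and glutathione peroxidases reduce the peroxide, and thioredoxin reductase and glutathione reductase restore the spent carriers with electrons from NADPH. Several of these genes, among them Nqo1, Hmox1, Gclc, Gclm, Srxn1, Txnrd1 and Gsr, are textbook targets of the transcription factor NRF2, the product of Nfe2l2. KEAP1 holds NRF2 for degradation until oxidants or electrophiles modify it, and NRF2 then binds antioxidant response elements together with a small MAF protein.

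The element's core reads TGACNNNGC or TGAGNNNGC, and it was searched on both strands of the RefSeq promoter windows (GRCm38.p6, 250 bases before to 50 after a gene's start). These windows are shown because the element is the feature that NRF2 binds. The table held windows for 7 of the 10 genes, and Gclc, Gsr and Hmox1 had no entry. Txnrd1 had 3 windows, so the 7 genes had 9. At least 1 core lay in 5 of the 9 windows, those of 5 genes (Gclm, Srxn1, Txnrd1, Prdx1 and Sod1). Over all 32851 windows 27.8% held one form or the other, with 12.4% for TGACNNNGC and 17.6% for TGAGNNNGC. The stretches around 5 of the cores follow, on the gene's strand, 5′ to 3′, with the core in capitals; a core on the opposite strand appears as its reverse complement.
Gclm, chr3:122245403-122245451, plus strand: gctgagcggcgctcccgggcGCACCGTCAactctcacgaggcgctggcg
Srxn1, chr2:152105459-152105507, plus strand: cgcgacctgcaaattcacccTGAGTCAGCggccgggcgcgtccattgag
Txnrd1, chr10:82859094-82859142, plus strand: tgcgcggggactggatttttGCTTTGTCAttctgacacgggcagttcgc
Prdx1, chr4:116685446-116685494, plus strand: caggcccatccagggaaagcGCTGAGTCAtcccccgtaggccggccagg
Sod1, chr16:90220686-90220734, plus strand: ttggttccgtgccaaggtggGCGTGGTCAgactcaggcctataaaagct
Srxn1 had 3 cores in its window and Prdx1 had 2. The core shown for each overlaps an AP-1 site (TGANTCA, in 7.81% of all windows), and their other cores do not. The Srxn1 core shown begins 45 bases and the Prdx1 core shown 133 bases before the gene's start. A match of letters is a description, not a binding site. Of the genes with a core, Sod1 and Srxn1 had positive and Gclm, Txnrd1 and Prdx1 negative log2 fold changes, none past the threshold. Nothing about a shared response is read from these signs. The window of Nqo1 held no core, and 3 genes had no window. Whether a core goes with a response was not tested.

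Libraries held 15095348, 14129822 and 9890218 estimated counts in siCOX7A2L replicates 1, 2 and 3, and 14896035, 14310241 and 17077826 in siCTRL replicates 1, 2 and 3. Cox7a2l, the targeted gene, had 6.72, 5.90 and 3.59 CPM in siCOX7A2L libraries, against 58.0, 59.5 and 58.9 CPM in siCTRL libraries (log2 fold change -3.44 ± 0.19 (SE), edgeR adjusted p = 1.9e-05). CPM are counts divided by library size, corrected for composition, and rescaled to a common total. Replicate 3 of both groups stood apart: messages of mitochondrial DNA took 1.61% of counts in siCOX7A2L replicate 3 and 2.78% in siCTRL replicate 3, against 0.589% to 0.616% in the other 4 libraries. Muscle differentiation markers moved with it, at a summed 6.95 to 324 CPM in siCOX7A2L libraries and 8.58 to 136 CPM in siCTRL libraries over 7 listed genes, and 1 of them, Acta1, was called higher (edgeR adjusted p = 0.0407), a call lost without replicate 3 (0.249), with a term for replicate 3 (0.0550) and without the block (0.927). The most abundant row, which has no symbol, held 6.97%, 7.57% and 11.1% of counts in siCOX7A2L libraries, against 6.59%, 6.25% and 5.81% in siCTRL libraries. The part of these differences in the results below was not tested. All 7 myoblast markers were detected (Myod1 at 118 to 161 CPM in siCOX7A2L libraries and 127 to 134 CPM in siCTRL libraries), 5 endothelial markers summed to at most 1.14 CPM in any library, and 7 macrophage and leukocyte markers summed to 9.25 to 10.8 CPM in siCOX7A2L libraries and 10.2 to 11.6 CPM in siCTRL libraries. Most of that sum was Cd14, at 6.51 to 8.71 CPM in siCOX7A2L libraries and 6.96 to 9.64 CPM in siCTRL libraries, while Adgre1 and C1qa of the same list were at 0 in all 6. One fibroblast marker, Dcn, was called higher (edgeR adjusted p = 0.0419), a call lost without replicate 3 (0.209) and without the block (0.822). The 7 fibroblast markers summed to 27.1 to 58.5 CPM in siCOX7A2L libraries and 19.1 to 24.8 CPM in siCTRL libraries. Dcn was 3.65 to 45.1 CPM of that in siCOX7A2L libraries, highest in replicate 3, and 1.85 to 11.7 CPM in siCTRL libraries. Pdgfra had 10.2 to 21.6 CPM in siCOX7A2L libraries and 11.4 to 14.9 CPM in siCTRL libraries. Of the 4 tested markers of this list, 3 had positive and 1 a negative log2 fold change, and Dcn was the 1 call.

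The question put to the 10 genes was whether loss of a respiratory supercomplex factor came with a change in antioxidant messages. The fit used the replicate number as a block, so that libraries of the same number were compared. It called 0 of the 10 genes at an edgeR adjusted p of 0.05 over all genes, in a table where 109 of 15022 genes passed (0.726%; 0.433% higher and 0.293% lower). At that background a count of 0 in 10 is no result about these genes as a group. At an unadjusted p under 0.05 there was 1 of the 10, Gsr, against 17.7% of all genes. DESeq2 with the block also called 0 of the 10 (3.38% of all genes), as did edgeR without the block (0.0133%) and with a term for replicate 3 in its place (1.31%). The authors' deposited table called 0 of the 10 as well, against 6.34% of its 12742 genes with an adjusted p, and gave adjusted p from 0.201 for Gsr to 0.970 for Gclc. Log2 fold changes were positive for 4 genes and negative for 6, with a median of -0.059 against 0.0077 for all tested genes.

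**Figure D1:**
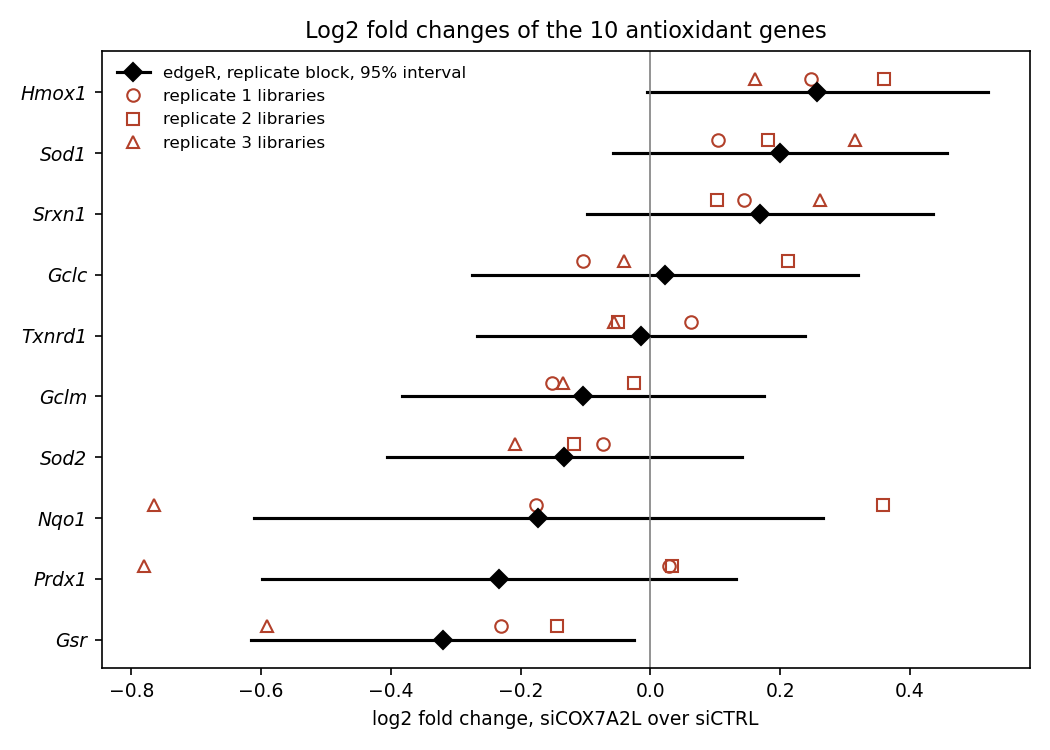
Log2 fold change of each gene, siCOX7A2L over siCTRL, from the edgeR fit with the replicate block (black diamonds, with 95% intervals), and from the libraries of each replicate number (open red symbols). Intervals run from -0.62 at the low end for Gsr to 0.52 at the high end for Hmox1, and the replicate 3 values of Nqo1, Prdx1 and Gsr lie furthest to the left.

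The intervals bound what these libraries leave room for, gene by gene and without adjustment for 10 genes. The lowest bound was -0.62 (Gsr) and the highest 0.52 (Hmox1) on the log2 scale. The median standard error was 0.13 for the 10 genes and 0.17 for all tested genes. Over the 10 genes 6 had the same direction in all 3 pairs of libraries, against 42.1% of all tested genes, and 1, Sod2, had groups that did not overlap on CPM, against 15.6% (7.62% lower and 7.96% higher). In bulk RNA, fewer cells that express a gene and less RNA per cell cannot be told apart.

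Glutathione is made by glutamate-cysteine ligase, whose catalytic subunit is encoded by Gclc and whose modifier subunit by Gclm. Gclc (ENSMUSG00000032350.10) had 48.2, 57.2 and 48.6 CPM in siCOX7A2L replicates 1, 2 and 3, against 51.8, 49.3 and 50.02 CPM in siCTRL libraries. The groups overlapped, with siCOX7A2L replicate 2 the highest library and siCOX7A2L replicate 1 the lowest. The fitted log2 fold change, 0.023 ± 0.13 (SE), had an edgeR adjusted p of 0.953 and an interval from -0.27 to 0.32. It became negative on TPM (-0.34), where the median of all genes is -0.21.

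Gclm (ENSMUSG00000028124.16) had 52.3, 57.3 and 59.0 CPM in siCOX7A2L libraries, against 58.2, 58.3 and 64.7 CPM in siCTRL libraries. It was a little lower with the Cox7a2l siRNA in each pair, by 0.025 to 0.15 in size on the log2 scale, and the groups overlapped. Its log2 fold change was -0.10 ± 0.13 (SE; edgeR adjusted p = 0.718; interval -0.38 to 0.18). Of the 31-base words in Gclm transcripts 5.61% also occur in other genes, against 0% for Gclc. The row that shares most with Gclm, Ppia (3.55% of the words), had 440 to 640 CPM in siCOX7A2L libraries and 434 to 571 CPM in siCTRL libraries. The part of this sharing in the Gclm values was not tested. The subunit messages kept a low ratio of catalytic to modifier on the length-corrected TPM scale: 0.262, 0.228 and 0.235 Gclc per Gclm in siCOX7A2L libraries, and 0.354, 0.224 and 0.317 in siCTRL libraries, with overlapping groups.

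Gsr (ENSMUSG00000031584.17) encodes glutathione reductase, which returns oxidised glutathione to its reduced form with NADPH. It had 69.8, 82.9 and 61.4 CPM in siCOX7A2L libraries, against 81.9, 91.5 and 92.6 CPM in siCTRL libraries. Of the 10 genes it had the lowest unadjusted p (0.0362) and the largest log2 fold change in size, at -0.32 ± 0.13 (SE), but it did not pass over all genes (edgeR adjusted p = 0.246). The groups met at a single pair of libraries, siCOX7A2L replicate 2 lying just above siCTRL replicate 1. The pairs gave -0.23, -0.14 and -0.59, all negative, and every setting tried kept the sign, from -0.63 on TPM to -0.19 without replicate 3. In size of p Gsr ranked 2213 of 15022 tested genes.

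Txnrd1 (ENSMUSG00000020250.12) encodes the cytosolic thioredoxin reductase, the selenoprotein that recharges thioredoxin. It was the most abundant of the 10 in CPM, at 385, 366 and 267 CPM in siCOX7A2L libraries, against 369, 379 and 277 CPM in siCTRL libraries. Replicate 3 was the low library in both groups, and the groups overlapped throughout. Its log2 fold change was -0.014 ± 0.11 (SE; edgeR adjusted p = 0.968; interval -0.27 to 0.24).

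Prdx1 (ENSMUSG00000028691.13) encodes a cytosolic peroxiredoxin that reduces hydrogen peroxide at the expense of thioredoxin. It had 267, 244 and 107 CPM in siCOX7A2L libraries, against 262, 239 and 184 CPM in siCTRL libraries. Replicates 1 and 2 matched closely between the groups, with pair values of 0.029 and 0.034, and siCOX7A2L replicate 3 stood far below all others, with a pair value of -0.78. The fitted log2 fold change of -0.23 ± 0.16 (SE; edgeR adjusted p = 0.4999) therefore came from 1 library pair, and was 0.029 without replicate 3. Of the 31-base words in its transcripts 15.2% also occur in other genes, so part of its count could have been assigned elsewhere. The row that shares most, Gm21399, was listed at 0 CPM in all 6 libraries.

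Srxn1 (ENSMUSG00000032802.9) encodes sulfiredoxin, which repairs peroxiredoxins that have been over-oxidised. It had 92.8, 98.2 and 78.7 CPM in siCOX7A2L libraries, against 84.0, 91.4 and 65.7 CPM in siCTRL libraries. It was higher with the Cox7a2l siRNA in each pair, by 0.14, 0.10 and 0.26, while the groups as wholes overlapped. The fit gave 0.17 ± 0.12 (log2, SE; edgeR adjusted p = 0.507; interval -0.097 to 0.43). Set against its substrate, 0.157, 0.208 and 0.745 Srxn1 messages were measured per Prdx1 message in siCOX7A2L libraries on the TPM scale, and 0.149, 0.174 and 0.193 in siCTRL libraries. The high ratio was again that of siCOX7A2L replicate 3, and the groups overlapped.

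**Figure D2:**
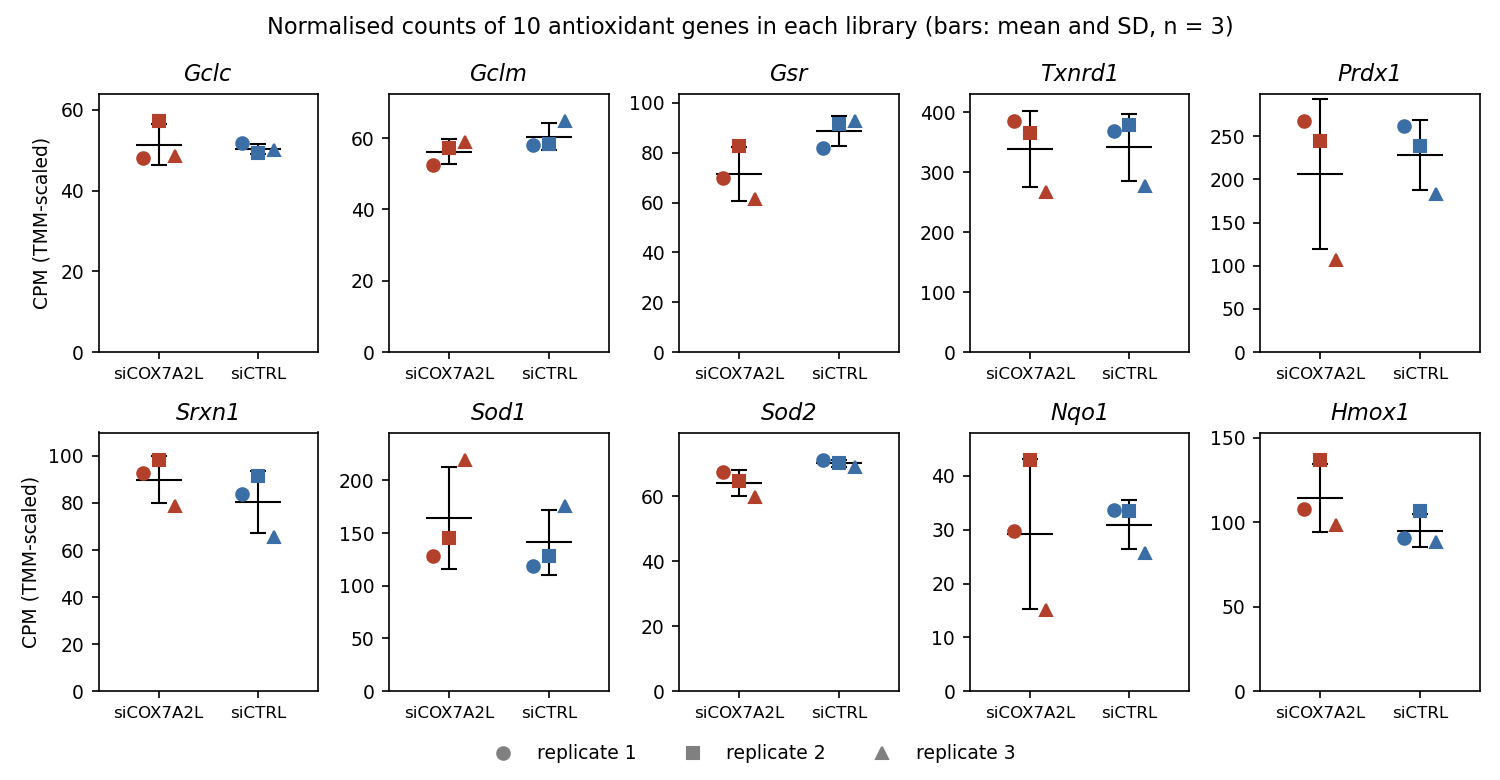
Normalised counts (CPM, vertical axes from 0) of the 10 genes in the siCOX7A2L and siCTRL libraries, with symbols for replicates 1, 2 and 3 and black bars for mean and SD (n = 3). In 9 of the 10 panels the groups overlap, and siCOX7A2L replicate 3 is the lowest library for Nqo1, Prdx1, Gsr, Txnrd1 and Sod2.

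Sod1 (ENSMUSG00000022982.11), the copper-zinc superoxide dismutase of the cytosol and intermembrane space, had 128, 146 and 219 CPM in siCOX7A2L libraries, against 119, 129 and 176 CPM in siCTRL libraries. Replicate 3 was the high library in both groups. The pairs gave 0.10, 0.18 and 0.32, and the fitted log2 fold change of 0.20 ± 0.12 (SE) did not pass (edgeR adjusted p = 0.404; interval -0.057 to 0.46). Its sign was negative on TPM (-0.033), where the median of all genes is -0.21. Of its 31-base words 5.41% also occur in other genes, nearly all in Gm8566.

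Sod2 (ENSMUSG00000006818.6), the manganese dismutase of the mitochondrial matrix, had 67.6, 64.8 and 59.7 CPM in siCOX7A2L libraries, against 71.1, 70.3 and 69.0 CPM in siCTRL libraries. On CPM all 3 siCOX7A2L libraries thus lay below all 3 siCTRL libraries, the single gene of the 10 for which that held. On TPM the groups overlapped, at 50.6, 52.1 and 38.7 TPM in siCOX7A2L libraries and 50.1, 52.9 and 42.6 TPM in siCTRL libraries. The size of the difference on counts was small: the fit gave -0.13 ± 0.12 (log2, SE; edgeR adjusted p = 0.625; interval -0.41 to 0.14). Of its 31-base words 26.6% also occur in other genes, most of them in AC166110.4, which itself had 10.5 to 13.2 CPM in siCOX7A2L libraries and 7.07 to 13.2 CPM in siCTRL libraries. The split between these rows is uncertain.

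Nqo1 (ENSMUSG00000003849.9) encodes a quinone reductase and is a standard reporter of NRF2 activity. It had 29.7, 42.9 and 15.0 CPM in siCOX7A2L libraries, against 33.6, 33.4 and 25.7 CPM in siCTRL libraries. The siCOX7A2L group held both the highest and the lowest library of the 6, with an SD of 13.9 CPM against 4.53 CPM in siCTRL (n = 3 each). The pairs disagreed in sign, at -0.18, 0.36 and -0.77. The fit gave -0.17 ± 0.20 (log2, SE; edgeR adjusted p = 0.699; interval -0.61 to 0.27), and 0.091 without replicate 3. Its lowest library rested on 134 estimated counts, the fewest behind any value of the 10 genes.

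Hmox1 (ENSMUSG00000005413.9) encodes the inducible heme oxygenase, which breaks heme into iron, carbon monoxide and biliverdin. It had 108, 137 and 98.6 CPM in siCOX7A2L libraries, against 90.6, 107 and 88.2 CPM in siCTRL libraries. It was higher with the Cox7a2l siRNA in each pair, by 0.25, 0.36 and 0.16, although siCTRL replicate 2 lay above siCOX7A2L replicate 3 and the groups overlapped. The log2 fold change of 0.26 ± 0.12 (SE; edgeR unadjusted p = 0.0543) was the largest positive one and did not pass (edgeR adjusted p = 0.292; interval -0.0057 to 0.52). On TPM it was -0.0084, where the median of all genes is -0.21.

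Levels of different genes can be compared on TPM, which is scaled to transcript length. In order of the siCTRL mean, Sod1 came first at 227 ± 19.9 TPM in siCOX7A2L and 237 ± 62.3 TPM in siCTRL (SD, n = 3 each), and it was first in all 6 libraries. Prdx1 followed at 129 ± 78.5 TPM in siCOX7A2L and 177 ± 10.1 TPM in siCTRL, and Txnrd1 at 103 ± 36.5 TPM in siCOX7A2L and 116 ± 17.7 TPM in siCTRL. Among siCTRL libraries these 3 did not overlap with their neighbours in the order, while in siCOX7A2L Prdx1 overlapped with Txnrd1 and Txnrd1 with Hmox1. Hmox1, Gclm, Sod2 and Gsr formed a middle group of siCTRL means from 44.6 to 57.8 TPM in which each overlapped with the next among siCTRL libraries. In siCOX7A2L Sod2 and Gsr did not overlap, and Gsr, at 30.76 ± 12.6 TPM, came just below Srxn1. Srxn1 averaged 30.8 ± 0.639 TPM in siCOX7A2L and 30.3 ± 2.28 TPM in siCTRL. Nqo1, at 15.6 ± 8.91 TPM in siCOX7A2L and 18.6 ± 2.31 TPM in siCTRL, and Gclc, at 12.8 ± 1.29 TPM in siCOX7A2L and 16.5 ± 3.07 TPM in siCTRL, were last and overlapped with each other.

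Within a library TPM sum to a fixed total, of which the row without a symbol took 44.2%, 46.3% and 53.6% in siCOX7A2L libraries and 42.5%, 41.4% and 36.9% in siCTRL libraries. TPM of other genes are therefore lower in siCOX7A2L replicate 3 as a whole, and ratios between genes in 1 library avoid this. Cytosolic over mitochondrial dismutase, Sod1 per Sod2 on TPM, was 4.12, 4.30 and 6.41 in siCOX7A2L libraries and 3.80, 4.01 and 7.23 in siCTRL libraries, higher in replicate 3 of both groups and overlapping between them. Thioredoxin reductase over glutathione reductase, Txnrd1 per Gsr, was 3.41, 3.09 and 3.78 in siCOX7A2L libraries and 2.75, 2.71 and 2.33 in siCTRL libraries. These values did not overlap on TPM. On CPM the same ratio was 5.51, 4.42 and 4.34 in siCOX7A2L libraries and 4.50, 4.14 and 2.99 in siCTRL libraries, and did overlap.

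The scales parted most in pair 3. There Prdx1 was -2.04 on log2 TPM and -0.78 on log2 CPM, Gsr -1.35 on TPM and -0.59 on CPM, and Nqo1 -1.44 on TPM and -0.77 on CPM. Hmox1 was -0.53 on TPM and 0.16 on CPM in that pair, so its sign differed between the scales. As given above, TPM of other genes are lower in siCOX7A2L replicate 3 as a whole, so such a gap is not particular to these genes. The transcript length implied by counts over TPM, set to the median gene, differed between the libraries of pair 3 by 0.63 for Prdx1 and by -0.70 for Sod2 and -0.45 for Gclm (log2, siCOX7A2L over siCTRL). For Gsr, Hmox1 and Nqo1 it differed by 0.13, 0.0635 and 0.046. The median size of this shift over 8956 genes with at least 100 estimated counts in every library was 0.0959 in pair 3, and 5% of genes lay below -0.48 and 5% above 0.37. Prdx1 and Sod2 thus lay outside the range of most genes. Both share words with other genes, as given above, and the part of that sharing in the shift was not tested.

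Replicate 3 differed from replicates 1 and 2 by more than the siRNA groups differed from each other for several of the genes. On log2 CPM, Prdx1 was lower in replicate 3 by 1.26 in siCOX7A2L and by 0.45 in siCTRL, and Nqo1 by 1.24 in siCOX7A2L and by 0.38 in siCTRL. Txnrd1 was lower by 0.49 in siCOX7A2L and by 0.43 in siCTRL. Sod1 was the gene that went furthest the other way, at 0.68 in siCOX7A2L and 0.51 in siCTRL. Gsr differed in sign, with -0.31 in siCOX7A2L and 0.10 in siCTRL. The median of the 10 genes was -0.29 in siCOX7A2L and -0.10 in siCTRL, against -0.018 and -0.010 for all tested genes. No test was made of these differences, each of 1 library from the other 2. Summed over the 10 genes, siCOX7A2L libraries had 1248, 1296 and 1014 CPM, against 1221, 1247 and 1093 CPM in siCTRL libraries, so that siCOX7A2L held the highest and the lowest sum.

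**Figure D3:**
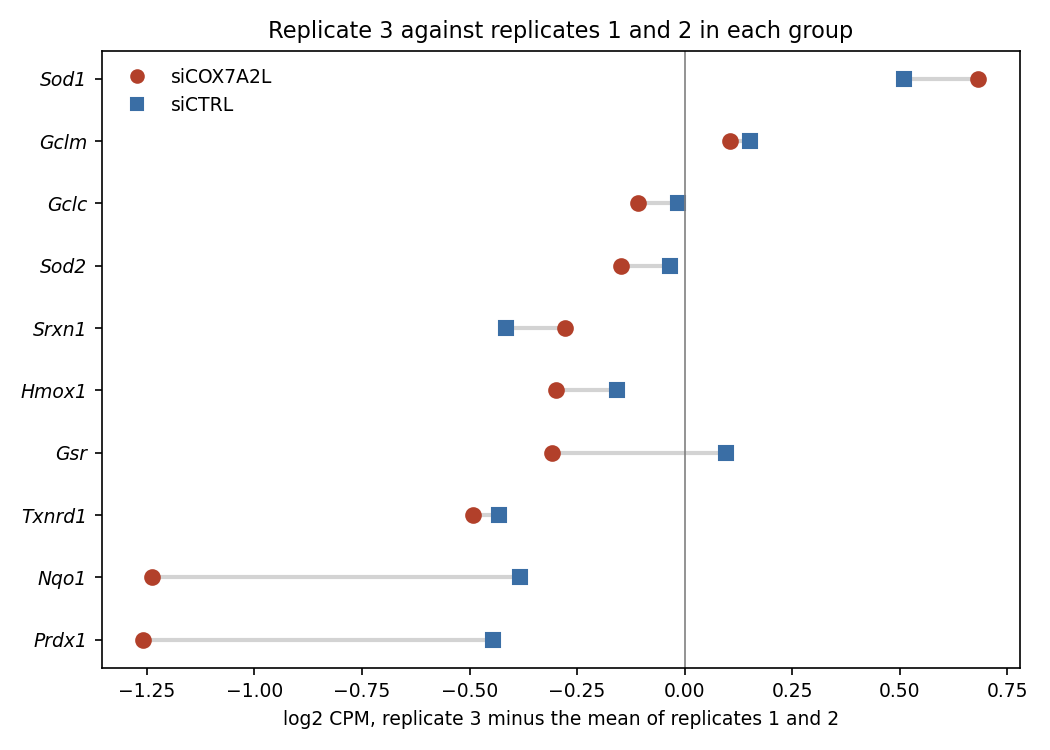
Difference in log2 CPM between replicate 3 and the mean of replicates 1 and 2, for siCOX7A2L (red circles) and siCTRL (blue squares). In siCOX7A2L Prdx1 and Nqo1 are lowest, at -1.26 and -1.24, and in siCTRL Prdx1 and Txnrd1, at -0.45 and -0.43. Sod1 is highest in both, at 0.68 in siCOX7A2L and 0.51 in siCTRL.

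The wider antioxidant system was read from 11 lists of 129 other genes, of which 128 had a row and 112 were tested. Of the 112 genes 3 rose and 1 fell (3.57% called, against 0.726% of all tested genes), and 57 had positive and 55 negative log2 fold changes, with a median of 0.015. At an unadjusted p under 0.05, 11 were higher and 10 lower, together 18.8% against 17.7% of all tested genes. The results of Txnip and Taldo1 were known when the lists were drawn up, so the share called is no evidence about the system. All 4 calls held with the block when any 1 pair of libraries was left out. Without the replicate block none of the 4 passed in edgeR, with adjusted p of 0.735 for Txnip and Chac1, 0.311 for Taldo1 and 0.754 for Idh1. In DESeq2 without the block Txnip, Taldo1 and Chac1 passed, with adjusted p of 0.00152, 1.5e-07 and 0.0447, and Idh1 did not (0.439).

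Txnip, which encodes a protein that binds thioredoxin and restrains it, had the largest change. It had 118, 114 and 92.8 CPM in siCOX7A2L libraries, against 45.2, 40.3 and 19.0 CPM in siCTRL libraries (log2 fold change 1.72 ± 0.18 (SE), edgeR adjusted p = 0.0024). The groups did not overlap. The thioredoxin gene Txn1 itself had 238, 220.3 and 213 CPM in siCOX7A2L libraries, against 263, 258 and 268 CPM in siCTRL libraries, and did not pass (log2 fold change -0.23, edgeR adjusted p = 0.325). All 17 listed thioredoxin, peroxiredoxin and glutaredoxin genes were tested, and Txnip was the 1 call among them. Over all tested genes 0.726% were called, and the result of Txnip was known when the list was drawn up.

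Of 12 tested genes listed for the supply of NADPH, the electron donor for Gsr, Txnrd1 and Nqo1, 2 passed, both higher. Over all tested genes 0.433% passed as higher and 0.293% as lower. The result of Taldo1 was known when the list was drawn up, so nothing is read from the count of 2. At an unadjusted edgeR p under 0.05, 2 of the 12 were higher and 2 lower, against 8.74% and 8.97% of all tested genes. Log2 fold changes on this list ran from -0.72 to 1.27, and 7 were positive and 5 negative. Taldo1, transaldolase of the pentose phosphate pathway, had 83.8, 78.7 and 91.3 CPM in siCOX7A2L libraries, against 38.6, 37.3 and 29.6 CPM in siCTRL libraries (log2 fold change 1.27 ± 0.15 (SE), edgeR adjusted p = 0.00565). Transaldolase does not itself make NADPH. G6pdx and Pgd, whose enzymes in that pathway do, had log2 fold changes of 0.079 and 0.13 and did not pass (edgeR adjusted p = 0.770 and 0.635). Idh1, the cytosolic isocitrate dehydrogenase that makes NADPH, had 78.1, 92.8 and 121 CPM in siCOX7A2L libraries, against 51.8, 45.9 and 78.7 CPM in siCTRL libraries (log2 fold change 0.74 ± 0.13 (SE), edgeR adjusted p = 0.0400). The Idh1 groups overlapped by a narrow margin, because replicate 3 was the high library in both. Its call was also lost on scaling by library size alone (edgeR adjusted p = 0.0743), within a range of 3.1e-05 to 1.00 over all settings tried.

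Among 8 tested genes of glutathione synthesis, import and breakdown, 1 fell, against 0.293% of all tested genes. With a list this short nothing is read from that count. Chac1, which encodes an enzyme that degrades glutathione and is known as a target of ATF4, had 33.4, 31.5 and 26.7 CPM in siCOX7A2L libraries, against 54.4, 56.4 and 44.9 CPM in siCTRL libraries (log2 fold change -0.76 ± 0.13 (SE), edgeR adjusted p = 0.0370). The groups did not overlap, and the pairs gave -0.70, -0.84 and -0.75. Slc7a11, the cystine importer that feeds glutathione synthesis, had 9.32, 8.43 and 6.63 CPM in siCOX7A2L libraries, against 10.3, 11.7 and 11.5 CPM in siCTRL libraries, and did not pass (log2 fold change -0.46, edgeR adjusted p = 0.258). Gss, glutathione synthetase, which completes the molecule that Gclc and Gclm begin, had a log2 fold change of 0.16 (edgeR adjusted p = 0.642) and pair values of 0.16, -0.16 and 0.49.

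None of the 10 tested regulators of the response passed by edgeR with the block. At an unadjusted p under 0.05 there were 2 of the 10, against 17.7% of all tested genes, and nothing is read from that count. Nfe2l2, the NRF2 gene, had 63.1, 73.2 and 92.9 CPM in siCOX7A2L libraries, against 55.3, 60.6 and 79.6 CPM in siCTRL libraries (log2 fold change 0.23, edgeR adjusted p = 0.360). It was higher in each pair while the groups overlapped, and its sign was negative on TPM (-0.049), where the median of all genes is -0.21. Keap1 had a log2 fold change of -0.11 (edgeR adjusted p = 0.703), and Bach1, a repressor that competes at the same elements, -0.088 (edgeR adjusted p = 0.783). The 2 past an unadjusted p were Sqstm1 and Nfe2l1. Neither overlapped between groups on CPM, which held for 15.6% of all tested genes. Sqstm1, the autophagy receptor p62 that can sequester KEAP1, had 517, 499 and 655 CPM in siCOX7A2L libraries, against 396, 414 and 385 CPM in siCTRL libraries (log2 fold change 0.47, edgeR adjusted p = 0.105). Nfe2l1, the NRF2 relative known for proteasome gene control, had 266, 265 and 369 CPM in siCOX7A2L libraries, against 222, 215 and 219 CPM in siCTRL libraries (log2 fold change 0.44, edgeR adjusted p = 0.131). DESeq2 with the block called Sqstm1 (adjusted p = 0.0364), and over all settings tried its adjusted p ran from 0.0121 to 1.00.

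**Figure D4:**
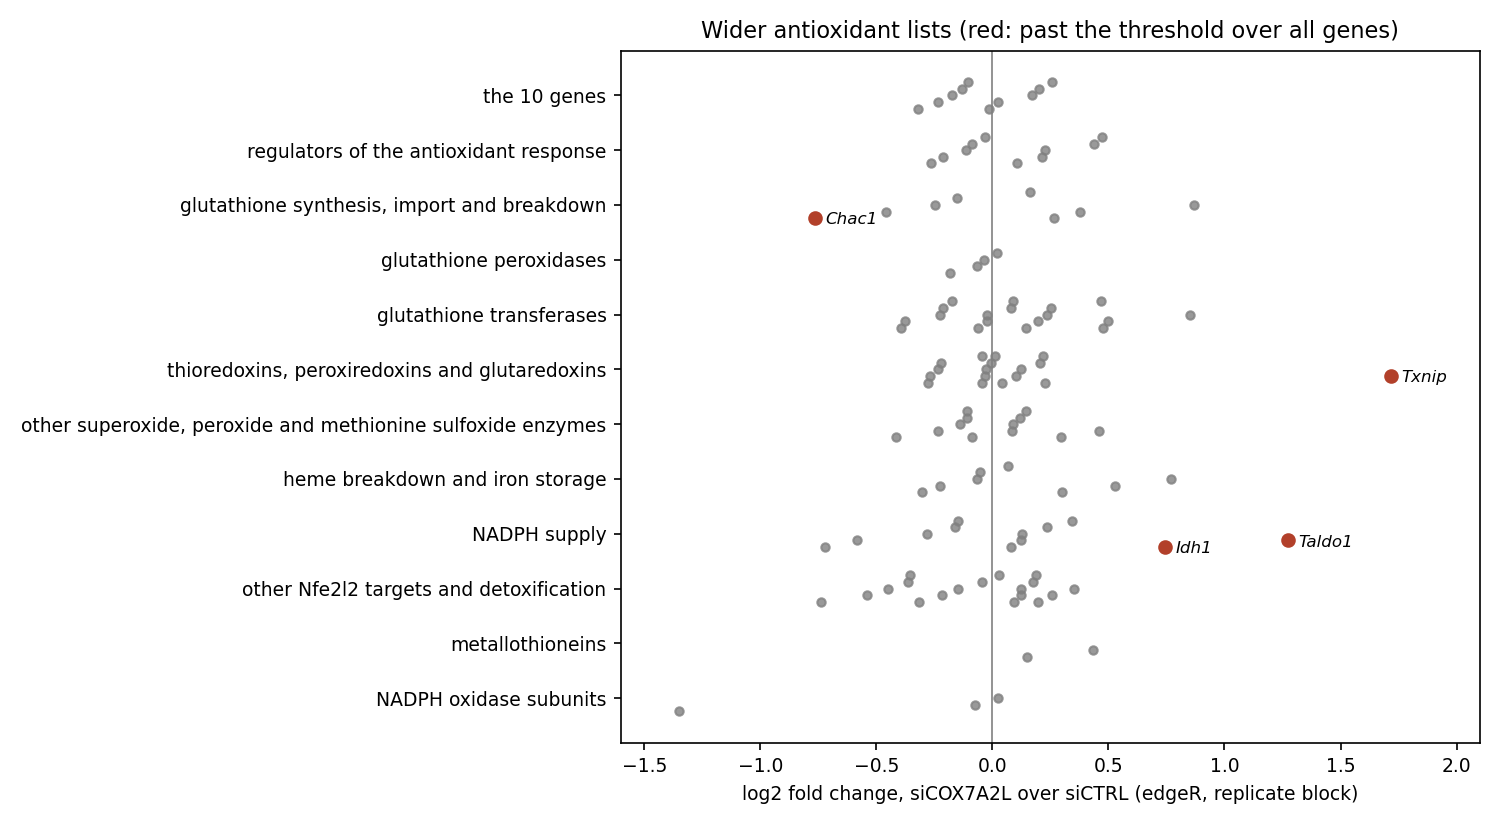
Log2 fold change, siCOX7A2L over siCTRL, of every tested gene of the 10 genes and of 11 wider antioxidant lists, 1 dot a gene, with genes past the edgeR threshold over all genes in red. The genes past the threshold are Txnip, Taldo1 and Idh1, at 1.72, 1.27 and 0.74, and Chac1, at -0.76, while genes that did not pass reach -1.35 and 0.87; the 10 genes span -0.32 to 0.26.

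The remaining lists held no gene past the threshold by edgeR with the block. Of 6 glutathione peroxidase genes 4 were tested, and their log2 fold changes lay between -0.18 and 0.022. Gpx4, which reduces lipid peroxides, had 289, 325 and 199 CPM in siCOX7A2L libraries, against 323, 325 and 205 CPM in siCTRL libraries (edgeR adjusted p = 0.809). Of 23 glutathione transferase genes 18 were tested, between -0.39 and 0.85, with 0 past an unadjusted p of 0.05. Cat, the catalase gene, had 45.5, 51.5 and 64.8 CPM in siCOX7A2L libraries, against 39.8, 43.6 and 68.5 CPM in siCTRL libraries (log2 fold change 0.12, edgeR adjusted p = 0.697). Its list of 12 tested superoxide, peroxide and methionine sulfoxide enzymes spanned -0.42 to 0.46, and the 2 tested metallothioneins had 0.15 and 0.43. The 8 tested genes of heme breakdown and iron storage, which follow on from Hmox1, spanned -0.31 to 0.77, with 3 higher and 0 lower at an unadjusted p under 0.05. Over all tested genes 8.74% were higher and 8.97% lower at that level. The 18 tested genes of other NRF2 targets and detoxification spanned -0.74 to 0.35, with 0 higher and 5 lower at that level. With lists this short, and none of these genes past the adjusted threshold, nothing is read from either count. NADPH oxidases are a source of superoxide outside the mitochondria, and 3 of their 9 listed genes were tested, between -1.35 and 0.025. The lowest, Duox1, had 0.570, 0.843 and 1.24 CPM in siCOX7A2L libraries, against 1.06, 2.13 and 4.12 CPM in siCTRL libraries. It was lower in each pair while the groups overlapped, and did not pass (edgeR adjusted p = 0.107, with a range of 0.0346 to 1.00 over its settings). Summed levels over the 9 were 9.69 to 15.6 CPM in siCOX7A2L libraries and 10.8 to 18.7 CPM in siCTRL libraries.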

How the data were processed

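The authors deposited estimated counts per gene, TPM, and a result table with scaled counts (a normalised signal), log2 fold changes with standard errors, a test score, p-values and adjusted p-values, per the file headers. Salmon 0.13.1, Trim Galore 0.6.4, mm39 and DESeq2 1.30.1 are named, without roles, in the submitters' processing notes; the annotation release is not given in the sources used here. Symbols were joined by gene identifier without version (97.6% of rows). Estimated counts were rounded to whole numbers. The test was edgeR's robust quasi-likelihood test (version 4.0.16, R 4.3.3) with TMM scaling, the default low-count filter, which left 15022 genes, the replicate number as block, and Benjamini-Hochberg adjustment at 0.05. Alternatives were DESeq2 1.42.0, limma 3.58.1 on TPM, no block, other scalings and filters, and left-out libraries. Standard errors of edgeR values are the size of the log2 fold change over the square root of F, and intervals are the log2 fold change plus or minus that standard error times the t quantile of the fit. Pair values are differences of log2 CPM with a prior count of 2. Deviations from group means correlated at 0.53, 0.45 and 0.67 between libraries of the same number, and the numbers were taken as pairs. Crossing replicates 1 and 2 gave 0.44 and 0.43, and crossing replicate 3 with either gave -0.60 to -0.51. Deviations from a group mean sum to 0 over the group, so these values could not all be positive. These correlations set replicate 3 apart but hardly tell replicates 1 and 2 from each other. No label says what libraries of the same number share. The 10 genes and all lists were chosen with earlier results of these data known. The text names the 10 genes, Cox7a2l, called list members, and some of a fixed set and of the 2 most abundant genes per list; markers and genes sharing words were singled out after their values were seen. The edgeR fit was tested on simulated data. Motifs and shared words came from RefSeq GRCm38.p6 windows and GENCODE M21 transcripts, another build than mm39, searched as letters and joined by symbol.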

Additional observations from a re-analysis of the deposited data

How the results depend on the processing

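None of the 10 genes passed under any of the 19 other settings run (0 in each). The table-wide count was 109 with the replicate block, 2 with no replicate block, 197 with a term for replicate 3, 507 with DESeq2 and the replicate block, 40 with DESeq2 and no replicate block, 58 on library size alone, 1257 with no filter, and 14 and 9 with limma on log2 TPM with 0.5 and 0.1 added. With libraries left out it ran from 0 to 1210: with the block it was 373 without replicate 1, 1210 without replicate 2 and 51 without replicate 3, and with 1 library left out and no replicate block it was 2 or fewer each time. The median of the 10 genes, -0.059, was -0.15 and -0.16 on TPM (0.5 and 0.1 added), where all genes had medians of -0.21 and -0.24, and -0.12 to 0.096 with libraries left out. On TPM signs turned, with 0.5 and then 0.1 added, for Hmox1 (-0.0084 and -0.0089), Gclc (-0.34 and -0.35), Sod1 (-0.033 with either), Nfe2l2 (-0.049 and -0.050) and Gss (-0.078 and -0.081), and for Gclc on library size alone (-0.022). With libraries left out, values ran from -0.47 to 0.23 for Nqo1, -0.082 to 0.084 for Gclc, -0.14 to 0.13 for Txnrd1, -0.38 to 0.16 for Prdx1, -0.053 to 0.41 for Sod1, -0.0005 to 0.31 for Gss, -0.26 to 0.10 for Gpx4, -0.069 to 0.37 for Cat and -1.603 to 3.75 for Acta1. Signs of Gclm, Srxn1, Gsr and Sod2 held in all 19 settings. On TPM a sign has to be read beside the negative median of all genes. With 0.5 added, Gclm (-0.0735), Hmox1 and Sod1 lay above that median, while Gclc and Gsr (-0.63) lay below it. The Cox7a2l call was lost without the block when any library but siCOX7A2L replicate 3 was left out (edgeR adjusted p = 0.0816 to 0.286), and held in the other 14 settings. On TPM with either pseudocount Txnip passed and Taldo1, Idh1 and Chac1 did not (limma adjusted p from 0.0871 for Taldo1 to 0.458 for Idh1). Nfe2l1 was called by edgeR with no filter (adjusted p = 0.0287), and Sqstm1 with no filter and without replicate 2 (0.0121 and 0.0316). Duox1 was called by edgeR with no filter alone (0.0346). Slc7a11 and Duox1 gave no value at a mean of at least 10 CPM, and DESeq2 gave no adjusted p for Duox1 with the block or for Acta1 without it. The causes were not tested. Each value of the 10 genes rests on at least 134 estimated counts.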
